A study of Mus musculus with 4 samples.

Results

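The genes described here were 43 genes of fatty acid synthesis, fatty acid remodelling and sebaceous lipid production in hair follicle stem cells (HF-SCs). They were chosen by gene symbol from a fixed list and on a mean normalized count above 0 in the deposited table, which all 43 listed genes met, out of 17044 genes with a mean above 0. The lowest members inside this limit were *Plin5* at 0.606 and *Mc5r* at 2.71, and no listed gene lay outside it. The study sequenced RNA of HF-SCs from back skin of C57BL/6 mice at postnatal day 44, with 2 control libraries and 2 libraries of mice with inducible *miR-205* after 2 days of induction. The inducible mice carried *pTRE2-miR-205* together with *Krt14*-rtTA, so that doxycycline switches on the microRNA wherever the *Krt14* promoter acts, which includes basal epidermis and sebaceous gland as well as the follicle. The transgene was made by injection into FVB mice. Both groups carried *K14-H2BGFP*, the mice were gender-matched, controls were littermates, subcutaneous fat was removed before sorting, and the sorted cells were live, H2BGFP-high, Sca1-negative, integrin α6-high and CD34-high. The labels call the control mice untreated, whereas the extraction protocol has both groups fed doxycycline, and the genotype of the controls beyond *K14-H2BGFP* is not given in the sources used here. Nor is it stated for each library whether it came from 1 animal.

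The values were the mean normalized counts over all 4 libraries, that is, reads per gene divided by a size factor for depth and averaged by the authors. The other columns of the table hold the authors' own comparison and were not used, so that no difference between control and induced mice is given here. Since a mean of 4 scaled whole numbers can be solved for the whole numbers, the reads of each library were recovered for 37 of the 43 genes. The 6 members with the highest means, *Fasn*, *Acsl3*, *Scd1*, *Acly*, *Far1* and *Elovl6*, had 2 or more solutions, so no values by library are given for them. *Elovl4* and *Srebf1*, with means just over 1000, had 1 solution each, but 5 and 7 when the tolerance was widened 10 times, so that their values by library are less secure than those of the other 35. The recovered libraries carry no name. They are called A to D here by their depth, with size factors of 1.24, 1.18, 0.966 and 0.716, and none was assigned to a group. Within these libraries fewer cells of a type and less RNA per cell cannot be told apart.

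Fatty acids are built in the cytosol from acetyl-CoA, then elongated, desaturated and joined to glycerol or to fatty alcohols. Every proliferating or membrane-building cell does this to some extent. Sebocytes, the cells of the sebaceous gland above the bulge, do it to an extreme and release wax esters and triglycerides when they burst. Some of the enzymes are therefore found in most cells and others, in skin, mainly in sebocytes. The 43 genes were divided on this basis into 26 general lipogenic genes, 7 sebocyte-restricted genes (*Scd3*, *Elovl3*, *Awat2*, *Far2*, *Mgst1*, *Cidea* and *Mc5r*) and 10 genes also known from adipocytes, endothelium or differentiated epidermis.

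The sorted cells had the RNA of bulge cells. All 10 stem cell markers were present, from *Tcf7l1* with a mean normalized count of 590 to *Krt5* with 146090, and *Cd34* had 14575. The female-specific RNA *Xist* had a mean of 24152, and 4 Y-linked genes had means between 0 and 1.87. The *Mir205* gene itself had 17, 8, 1 and 8 reads in libraries A to D, which check no label because the libraries have none. Markers of other cells were also detected, with 4 of 4 fibroblast, myeloid, melanocyte, endothelial and suprabasal markers each above 0. Of all 24421 genes listed, 17044 were above 0, so such a count alone says little. *Emcn*, an endothelial marker, at 5.63 and *Mlana*, a melanocyte marker, at 9.77 were under 10. The summed mean was 13322 for the fibroblast markers, led by *Col1a1* at 5186, and 3454 for the myeloid ones. For the suprabasal markers it was 9999, led by *Krt10* at 7246 and *Krt1* at 2033. All 5 markers of the sebaceous duct and isthmus were above 0 as well, with *Krt17* at 9585, *Plet1* at 7500, *Lrig1* at 1755, *Krt79* at 1735 and *Gata6* at 40.6. Adipocyte markers were very low. Of 7, 6 were above 0 but 6 were under 10, with *Lep* at 0 and *Adipoq* at 0.259.

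Because *miR-205* was the induced agent, its sequence and its matches among the 43 genes are shown first. The mature microRNA, from RefSeq on GRCm38.p6 (chromosome 1, 193507503 to 193507524, minus strand), is printed 5′ to 3′ with the seed, bases 2 to 8, in capitals.
mmu-miR-205-5p: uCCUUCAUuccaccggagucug

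A match to these bases, ATGAAGG, was present in the longest 3′UTR of 7 of the 43 genes (16.3%), against 11.7% of 15150 genes with a 3′UTR. With bases 2 to 7 alone the shares were 34.9% and 36.5%. The genes were *Acsl1*, *Acsl4*, *Acss2*, *Elovl3*, *Elovl7*, *Far1* and *Gpam*. The 4 that also hold the extended match followed by A are shown with *Elovl3*, the single sebocyte-restricted gene with a match, with the match in capitals. They lie on NCBIM37 at chr8:47621361-47621367 (*Acsl1*, plus strand, exon 21 of 21), chr13:109074767-109074773 (*Elovl7*, plus strand, exon 8 of 8), chr7:120712683-120712689 (*Far1*, plus strand, exon 13 of 13), chr19:55142672-55142678 (*Gpam*, minus strand, exon 23 of 23) and chr19:46210131-46210137 (*Elovl3*, plus strand, exon 4 of 4).
Acsl1: ccaaaaacaATGAAGGaaaccaaa
Elovl7: actatatgaATGAAGGagggaggt
Far1: tgcattattATGAAGGaatgtagt
Gpam: gccttcctcATGAAGGatctacca
Elovl3: atgggaaggATGAAGGgaaggagg

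The match of *Acss2* lies in exon 5 of 13 of a transcript whose coding part ends early. A match is a description of the letters and does not show binding.

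Taken per length, the general genes were the more abundant. Their median was 159 mean normalized counts per kb of exon, with quartiles of 84.9 and 291, while the sebocyte-restricted genes had a median of 26.8 and the third list one of 38.5. The median of all 16203 genes with a known exon length was 39.7. The general median was 5.94 times the sebocyte-restricted one, and 23 of 26 general genes lay above the sebocyte-restricted median. That median, the level of *Elovl3*, lay at percentile 43.8 of all genes per kb, so most genes lay above it. One sebocyte-restricted gene, *Mgst1*, lay above the general median. The ratio depends on which genes count as sebocyte genes. With *Scd1* and *Dgat2* moved there from the general list, and *Pparg*, *Prdm1* and *Acsbg1* from the third, it was 1.86. Lengths are of all exons of a gene merged, and with the longest transcript in their place 9 of the 43 genes moved up by over 1.5-fold (*Acss2*, *Plin2*, *Mgst1*, *Acsl1*, *Lpl*, *Far1*, *Dgat1*, *Far2* and *Elovl1*). As these are levels averaged over both groups, no test was made. Of the summed counts of the 43 genes, 85.3% came from the general and 2.98% from the sebocyte-restricted list.

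**Figure D1:**
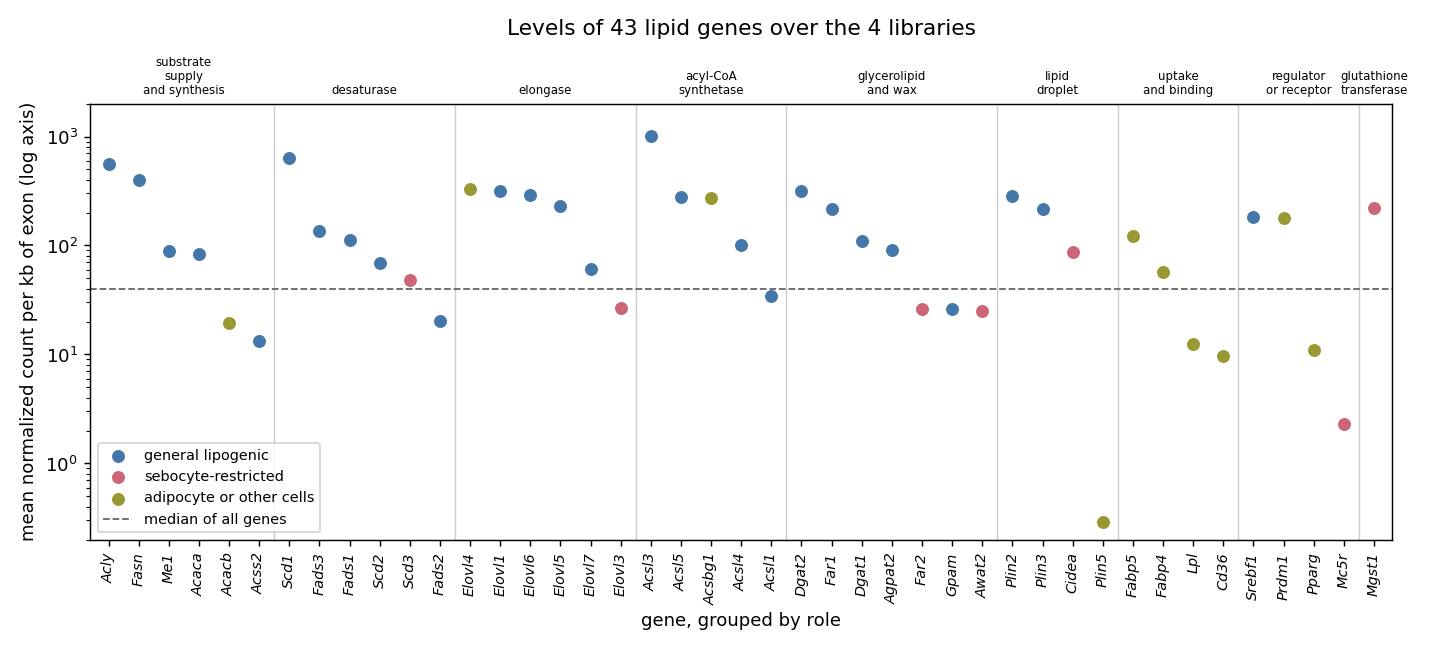
Each point is the mean normalized count of 1 gene over the 4 libraries, divided by its exon length in kb, on a log axis, with genes grouped by role and coloured by list, and the dashed line is the median of all genes at 39.7. *Acsl3* is highest at 1016 and *Plin5* lowest at 0.291, and the sebocyte-restricted genes other than *Mgst1*, *Cidea* and *Scd3* lie below the line.

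The enzymes that supply and assemble the chain were led by *Acly*, which makes cytosolic acetyl-CoA from citrate, at a mean of 2936 and 556 counts per kb, and *Fasn*, the fatty acid synthase, at a mean of 3913 and 397 counts per kb. *Acaca*, the acetyl-CoA carboxylase of lipogenic cells, had 83.6 counts per kb, above the 19.4 counts per kb of *Acacb*, its mitochondrial counterpart that restrains oxidation. *Acss2*, which makes acetyl-CoA from acetate, had 13.4 counts per kb over merged exons and 37.6 over its longest transcript, so that it or *Acacb* was the lowest of this group depending on the length used. *Me1*, a source of NADPH for synthesis, had normalized counts of 243, 354, 418 and 253 in libraries A to D. The normalized counts of *Acaca* were 716, 1009, 863 and 821, a spread of 1.41-fold from lowest to highest library. Those of *Acacb* were 123, 263, 208 and 155, a spread of 2.14-fold (1.76 to 2.62).

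Among desaturases, *Scd1*, the main enzyme that makes monounsaturated fatty acids, had a mean of 3085 and 638 counts per kb, below *Acsl3* alone over merged exons, and below *Acsl3* and *Acly* (663) over the longest transcript. *Scd2*, its relative of brain and fetal skin, had 69.6, and *Scd3*, which in skin marks sebocytes, had 48.4 counts per kb. The 3 genes lie in 1 cluster on NCBIM37 chromosome 19, *Scd3* at 44277759 to 44318506, *Scd2* at 44368166 to 44381354 and *Scd1* at 44468941 to 44482199, with *Scd4*, which had a mean of 0.988, between the last 2. Of their 100-base windows, shorter than the 150-base reads, 2.64% for *Scd1*, 2.54% for *Scd3* and 0.897% for *Scd2* also occurred in another gene's coding transcript, so reads there are uncertain. The exons of *Scd2* also overlap *AC123853.2* on the same strand, which leaves those reads uncertain too. Normalized counts of *Scd3* were 175, 297, 179 and 36.3 in libraries A to D. Its highest value, in B, was 8.18 times its lowest, in D, with a nominal 95% interval of 5.49 to 12.7 (exact binomial, counting error only, as for all such intervals here). The highest and lowest of the 4 libraries were picked by their values. These intervals do not allow for that and so lie too high. *Scd2* had 186, 537, 433 and 363, with A the lowest.

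The FADS desaturases, which act on polyunsaturated chains in the case of *Fads1* and *Fads2*, also form a cluster on chromosome 19. *Fads3*, known to desaturate sphingoid bases, had normalized counts of 734, 174, 352 and 528 in libraries A to D. Its order was thus the reverse of that of *Scd2*, with A highest and B lowest, and the highest value was 4.22 times the lowest (3.62 to 4.94). *Fads1* varied less, from 339 to 462, and *Fads2* was low throughout, from 21.8 to 40.7.

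The elongases were expressed at 4 similar levels and 2 lower ones. *Elovl4*, which makes the ultra-long chains of the skin barrier, had 331 counts per kb, beside *Elovl1* at 317, *Elovl6* at 293 and *Elovl5* at 230. Over the longest transcript *Elovl1* had 478 and was above *Elovl4*. *Elovl7* had 60.6, and *Elovl3*, the elongase of sebaceous glands and brown fat, 26.8 counts per kb. The libraries differed most for the genes of differentiated cells. *Elovl4* had normalized counts of 541, 1677, 1252 and 577 in libraries A to D, and *Elovl3* had 24.3, 70.4, 85.9 and 20.9. In both genes B and C held the higher values, with a highest value 3.10 times the lowest (2.84 to 3.39) for *Elovl4* and 4.10 times (2.35 to 7.66) for *Elovl3*. *Elovl1* and *Elovl5*, by contrast, ranged only from 767 to 974 and from 724 to 937.

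The acyl-CoA synthetases activate fatty acids for every later step. *Acsl3*, the form of the endoplasmic reticulum and lipid droplets, had the highest level per kb of the 43 genes, 1016, with a mean of 3658. Its exons overlap *Utp14b* on the same strand, and 3.49% of its 100-base windows occurred in that gene too. *Acsl5* had 280, *Acsbg1* 275, *Acsl4* 102 and *Acsl1* 34.6 counts per kb. Across libraries these 4 genes ranged from 1.51-fold (*Acsl5*) to 1.73-fold (*Acsbg1*) between lowest and highest.

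For triglycerides and waxes, the last acyltransferases *Dgat2* and *Dgat1* had 316 and 110 counts per kb, and the earlier steps *Agpat2* and *Gpam* had 91.3 and 26.2. The fatty alcohols of wax come from FAR enzymes, of which the general *Far1* had 217 and *Far2* 26.2 counts per kb. *Awat2*, the wax ester synthase of sebaceous and meibomian glands, had 25.2 counts per kb. Normalized counts of *Far2* were 88.1, 229, 169 and 64.2 in libraries A to D. Those of *Awat2* were 41.2, 65.3, 78.6 and 29.3, again with D lowest. The highest over the lowest value was 3.57 (2.60 to 4.99) for *Far2* and 2.68 (1.64 to 4.58) for *Awat2*, while *Dgat1*, *Dgat2*, *Agpat2* and *Gpam* ranged from 1.26-fold to 1.34-fold.

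Lipid droplets are coated by perilipins. *Plin2* and *Plin3*, the forms of most cells, had 283 and 215 counts per kb, and *Plin5*, the form of oxidative muscle and heart, had 3 reads in all (exact Poisson 95% interval 0.619 to 8.77), every one in library A. *Plin2* had normalized counts of 878, 1054, 1406 and 642 in libraries A to D, and *Plin3* stayed between 447 and 497. *Cidea*, which promotes droplet fusion in sebocytes and brown fat, had 45.3, 194, 95.2 and 67.0, a highest value of 4.29 times the lowest (3.19 to 5.85).

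The genes of lipid uptake and binding ranged from 9.64 to 121 counts per kb. *Fabp5*, the fatty acid-binding protein of epidermis, had 121 counts per kb, *Fabp4*, that of adipocytes, macrophages and endothelium, 57.5, the lipase *Lpl* 12.6 and the scavenger receptor *Cd36* 9.64. *Fabp4* had 36, 37, 79 and 3 reads in libraries A to D, or normalized counts of 29.1, 31.4, 81.8 and 4.19. This was the widest spread of the 35 members with at least 50 reads, 19.5-fold with an interval of 6.44 to 96.7. *Fabp5* had 282, 574, 540 and 329, *Lpl* 72.0, 149, 66.2 and 54.4, and *Cd36* 35.6, 46.7, 58.0 and 11.2.

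The regulators were split in level. *Srebf1*, the transcription factor that switches on fatty acid synthesis genes, had 181 counts per kb, and *Prdm1*, a repressor found in differentiating epidermis and sebaceous gland, 178. *Pparg*, which drives sebocyte and adipocyte differentiation, had 11.1. *Mc5r*, the melanocortin receptor of sebocytes, had 1, 2, 4 and 3 reads in libraries A to D, a total of 10 with an exact Poisson 95% interval of 4.80 to 18.4, and no order of its libraries can be read at this depth. *Srebf1* had the narrowest spread of the 35 members with at least 50 reads, with normalized counts of 972, 1074, 1009 and 1033. *Prdm1* had 1207, 703, 862 and 1143, and *Pparg* 19.4, 26.3, 26.9 and 15.4, whose interval of 0.837 to 3.93 for the highest over the lowest library includes 1. *Mgst1*, a membrane glutathione transferase that marks sebocytes among skin epithelia, had 605, 450, 417 and 290, with A rather than B or C highest.

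**Figure D2:**
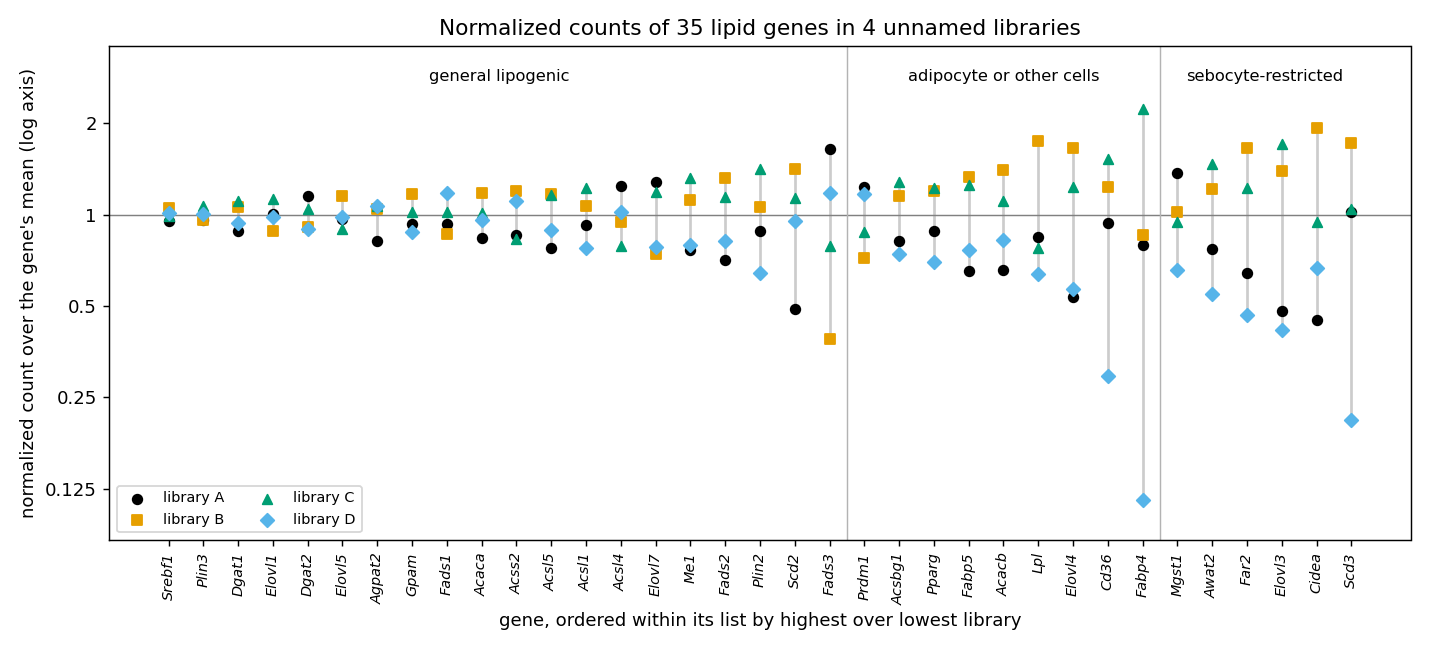
For the 35 members with recovered reads and at least 50 reads in all, points give the normalized count in libraries A to D divided by the gene's mean, on a log axis, with a line from lowest to highest. *Srebf1* spans 1.10-fold and *Fabp4* 19.5-fold. Library D, the shallowest, is the lowest for 5 of the 6 sebocyte-restricted genes, 5 of 9 of the third list and 4 of 20 general genes. The share of all genes lowest in D was not counted, so these counts have nothing to be judged against.

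Among all 7889 genes with a mean from 50 to 1000, the highest library was at least 2-fold over the lowest in 7.45%. Of the members in this range the same held for 12 of 29. By list it held for 6 of 6 sebocyte-restricted genes and 3 of 5 genes of the third list (*Lpl*, *Fabp5* and *Acacb*). Among general genes it held for 3 of 18 (*Scd2*, *Fads3* and *Plin2*). The lists had been chosen with earlier results of these data known, so that these shares are a description of the genes and not a test. The median spread was 3.83-fold over the 6 sebocyte-restricted genes and 1.43-fold over 20 general genes with at least 50 reads. It was 1.31-fold over all genes in the range, while those 20 include *Fads2* (mean 30.7) and *Srebf1* (1022) outside it. The lists also differ in level, with means of 50.4 to 441 for the 6 and a median mean of 631 for the general list. Counting error widens the spread more at low counts, and its share was not tested. Relative to each gene's own mean, the sebocyte-restricted median was 0.705, 1.53, 1.13 and 0.507 in libraries A to D. The general median was 0.931, 1.06, 1.07 and 0.960, and that of all genes in the range lay between 0.980 and 1.01. The ratio of the general to the sebocyte-restricted median per kb accordingly was 9.80, 3.53, 3.30 and 14.1 in the libraries taken singly. For it, the general genes without recovered reads were placed above all others in each library.

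Markers of other cells varied among the same libraries. The summed normalized count of 3 myeloid markers was 434, 1149, 824 and 431 in libraries A to D, that of 4 melanocyte markers 604, 568, 1593 and 258, and that of 4 endothelial markers 93.8, 94.2, 124 and 46.1. The 7 adipocyte markers summed to 29.9, 45.0, 15.5 and 8.38, and the suprabasal markers *Lor* and *Ivl* to 538, 736, 1337 and 267. Library D was lowest in these 5 sums, though for the myeloid one only just below A. Taken singly, *Lyz2* (234 in A, 272 in D), *Ptprc* (57.4, 61.4) and *Emcn* (1.62, 6.98) were lowest in A. The other recovered myeloid, melanocyte, endothelial and suprabasal markers were lowest in D. The adipocyte sum was mostly *Plin4* in A (29.9) and *Cfd* in B (24.6). *Cd74*, a myeloid marker with a mean of 2744, was not recovered by library. Nor were the suprabasal *Krt10* and *Krt1*, with means of 7246 and 2033, far above those of *Lor* and *Ivl*. *Pdgfra*, the single fibroblast marker with recovered reads, had 43.7, 32.2, 48.6 and 33.5, with B lowest. The part of these cells in the values of the lipid genes was not tested. *Tcf7l1*, the stem cell marker with recovered reads, had 518, 569, 604 and 670, and *Gata6*, the single duct and isthmus marker with recovered reads, had 41.2, 39.9, 47.6 and 33.5.

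**Figure D3:**
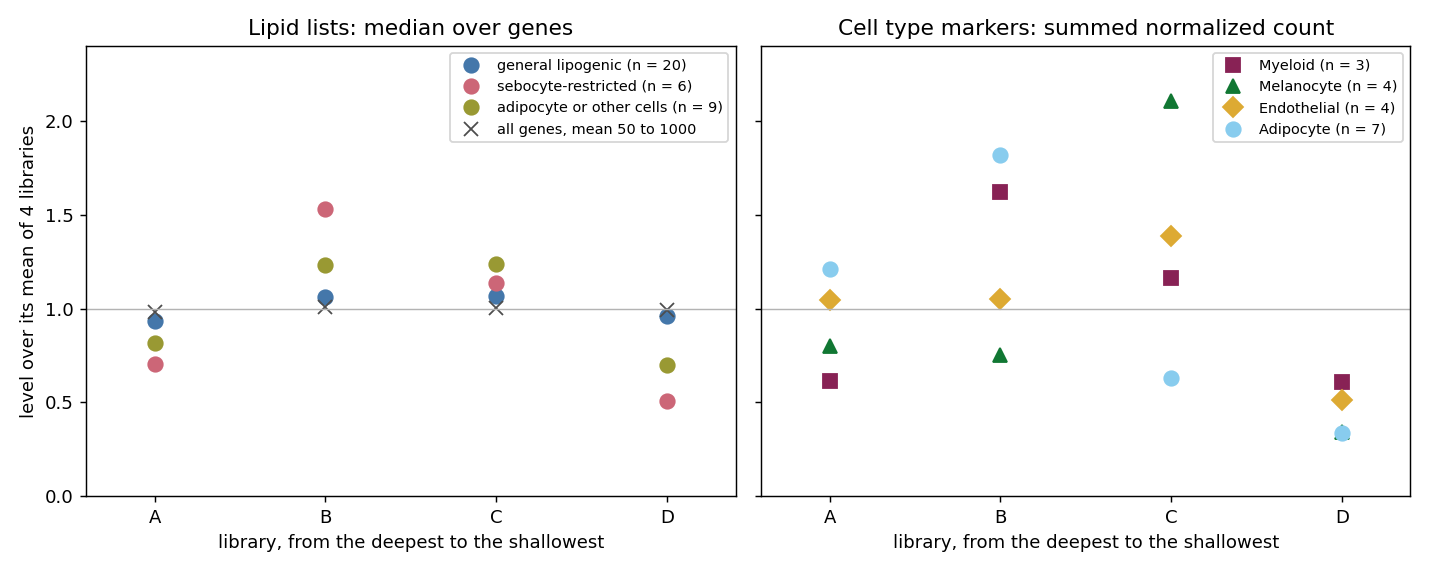
The left panel gives the median over genes of the normalized count divided by the gene's mean for the 3 lipid lists and for all genes with a mean from 50 to 1000, and the right panel the summed normalized count of marker lists divided by its mean over the 4 libraries. Sebocyte-restricted genes run from 0.507 in D to 1.53 in B, and general genes from 0.931 to 1.07. The sums of the 4 marker lists shown (myeloid, melanocyte, endothelial, adipocyte) are lowest in D. Taken singly, the myeloid *Lyz2* and *Ptprc* and the endothelial *Emcn* are not lowest in D. Neither is the fibroblast marker *Pdgfra*, which is not drawn.

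A further 50 genes of lipid synthesis, storage and their control were examined, of which 46 had a mean above 0 and 32 a mean over 50. Of all 24421 genes listed, 17044 were above 0. Among these a mean of 50.4 (*Elovl3*) lay at percentile 39.4, so such counts alone say little. Among the remaining steps of elongation, the reductases *Tecr* and *Hsd17b12* had 1828 and 361 counts per kb, and the dehydratases *Hacd3*, *Hacd1*, *Hacd2* and *Hacd4* had 219, 104, 88.6 and 0.911. The sterol-sensing proteins *Insig1* and *Scap* had 430 and 385 counts per kb. *Thrsp*, a lipogenic regulator of liver and fat, and the liver-type *Fabp1* were at 0. Of 27 such genes with a mean from 50 to 1000, 2 had a highest library at least 2-fold over the lowest, *Hacd1* and *Soat1*. *Soat1*, a cholesterol acyltransferase of sebocytes and other cells, had 230, 411, 329 and 195 in libraries A to D. *Hacd1* had another order, with 164, 73.8, 92.1 and 141, so that A and D were highest and B lowest. *Awat1*, the close relative of *Awat2* in sebaceous gland, lay below this range with a mean of 35.5. Its values were 18.6, 64.5, 47.6 and 11.2, a spread of 5.77-fold (2.79 to 13.9). *Plin4*, also below the range, was highest in A (29.9) and lowest in D (6.98), a spread of 4.29-fold (1.68 to 13.97).

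RefSeq promoters on GRCm38.p6, from 250 bases before to 50 bases after the start site, were found for 32 of the 43 genes. The box CCAAT, on either strand, was present for 23 of 32 members (71.9%) against 41.7% of 12514 genes. The E-box CACGTG was present for 3 members (9.38%) against 10.9%, and the sterol element TCACNCCAC for 1 member, *Acsl1* (3.12%), against 1.5%. The direct repeat bound by PPAR receptors was found for 0 of 32 members and 0.0559% of genes. No match says only that these letters are not in this window.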

How the data were processed

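RNA-seq libraries of HF-SCs were grouped by the sample titles into 2 control and 2 *miR-205* induced libraries. Per the methods and the processing notes, the authors aligned reads with HISAT2 2.1.0 to a genome named both NCBI37 and mm10, used SAMtools 1.3.1, counted with HTSeq and ran DESeq2. Neither the annotation nor the strand setting of that counting is given in the sources used here. The single deposited table gives a mean normalized count, a signal made by the authors, for 24421 genes. Its other columns hold the authors' log2 fold changes, standard errors, Wald statistics and p-values and were not used. Columns with values of single samples numbered 0.

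Low means took 4 recurring values, the worth of 1 read in 1 library, and their multiples. These gave the size factors, and each mean up to 1100 was solved for 4 whole numbers within the rounding of its last digit. Of 14812 such genes, 99.5% had a single solution, and 0 genes had no solution. On simulated reads of 300 genes, made with the size factors as solved, 99.7% were recovered. These genes were drawn from means below those of *Elovl4*, *Srebf1*, *Acsl5*, *Acsbg1*, *Plin2* and *Prdm1*, so the rate was not measured at that level. Library totals are not known, and size factors differed 1.73-fold.

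Lengths are merged exons of GENCODE vM1 on NCBIM37, found for 16203 genes. Matches in 3′UTRs are from the same release, and no coordinate was converted. The members and lists were chosen with earlier results of these data known. All members are named, with values by library for those that vary or anchor a role. Overlaps with exons of other genes on the opposite strand (*Acaca*, *Elovl1*, *Elovl3*, *Srebf1*, *Far1*, *Far2*, *Cidea*, *Agpat2*, *Acss2* and *Me1*) leave those reads uncertain if strand was not used. *Gpat3* and *Gpat4* were matched by older symbols. Work was done in Python 3.11.15 with numpy 2.4.6, pandas 2.3.3, scipy 1.17.1, numba 0.67.0 and matplotlib 3.10.9.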

Additional observations from a re-analysis of the deposited data

How the results depend on the processing

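No paired analysis was possible because the mean count carries no replicate number and the recovered libraries were not tied to a group. The columns of the authors' own comparison, which might tie them to a group, were by choice not used. For the same reason, leaving out a replicate of a named group was not run, and each unnamed library was left out in turn instead. The ratio of the general to the sebocyte-restricted median per kb was 5.94 and stayed above 1 in every setting run, with 4.78 to 7.33 when 1 library was left out, 4.97 with the longest transcript, 6.28 without division by length, 4.23 over genes with a mean over 10, 4.34 on the log2 scale with 0.1 added, and 1.86 with the broad sebocyte list. With 1 library left out, the general genes without recovered reads were placed above all others. The median percentile of the members was 70.3 among genes with a mean above 0 and 54.9 among genes with a mean over 50, where fewer genes rank below them, and 68.8 per kb. Of the members, 41 had a mean over 10 and 37 over 50. Among all genes above 0, a mean of 9.77 (*Mlana*) lay at percentile 25.4 and one of 50.4 (*Elovl3*) at percentile 39.4. Genes with a *miR-205* match numbered 7 (16.3% against 11.7% of all genes). The number was 15 with bases 2 to 7 (34.9% against 36.5%, so that the members' share was then the lower), 4 with bases 2 to 8 followed by A (9.3% against 4.22%) and 4 in the shortest 3′UTR (9.3% against 6.5%), which follows from a shorter or longer match and a shorter window. With 1 more base of the sterol element left free, 2 promoters held it (6.25% against 3.32%). At 10 times the tolerance, 35 members kept a single solution, and *Elovl4* and *Srebf1* did not. Low depth limits *Mc5r* and *Plin5*.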

Other observations

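The libraries with the 2 highest normalized counts were B and C for 21 of the 35 members with at least 50 reads. The pair was A and B for 2, A and C for 3, A and D for 3, B and D for 3 and C and D for 3. Among the 7889 genes with a mean from 50 to 1000, B and C were the 2 highest for 25.4%, A and D for 19.7%, and the other pairs for between 12.8% and 15.2%. Some of the 35 members lie outside that range, and of the 29 members inside it B and C were the 2 highest for 16. By list, B and C were the 2 highest for 5 of 6 sebocyte-restricted, 7 of 9 genes of the third list and 9 of 20 general genes. Inside the range the counts were 5 of 6, 3 of 5 and 8 of 18. For *Elovl4* the second highest value was 2.17 times the third, and for *Elovl3* 2.90 times. Which of these libraries came from control and which from induced mice was not determined.

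The 4 melanocyte markers were all highest in C. Second was B for *Tyr* and, only just, for *Dct*, and A for *Pmel* and *Mlana*. *Tyr* had 12.9, 22.9, 71.4 and 6.98 in libraries A to D, and *Mlana* 12.9, 5.09, 19.7 and 1.40. *Dct*, an enzyme of melanin synthesis, had 388, 394, 1041 and 170 in libraries A to D, and *Pmel*, a protein of pigment granules, had 190, 146, 461 and 79.6, with C alone high. *Lyz2*, the lysozyme of myeloid cells, had 234, 769, 523 and 272. *Lor*, a protein of the cornified layer, had 422, 623, 1183 and 187.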
